A study of Homo sapiens with 8 samples.

Results

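The genes described here are 10 genes of the integrated stress response: ATF4, ATF5, CEBPG, DDIT3, PPP1R15A, TRIB3, DDIT4, SESN2, ASNS and CHAC1. They were chosen from their measured levels in these same libraries, with the differences between the groups and the scatter between the M5_O5 libraries already known. Their values in this comparison are therefore a description, carry no test, and support no statement about the pathway. The 10 genes are 10 of the 17131 genes listed in the deposited transcript tables, and all 10 were among the 12434 genes with enough counts to be tested.

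The libraries were made from HaCaT, an immortalised line of human keratinocytes, so every group is a model built on 1 cell line grown without other skin cells. M5 stands for 5 cytokines given together, namely oncostatin M, TNF-α, IL-1α, IL-17A and IL-22, applied for 24 h at 10 ng/mL each to give keratinocytes a psoriasis-like state. OTS514 blocks TOPK, a kinase encoded by PBK. Per the methods it was given at 10 nM for 12 h ahead of the cytokines and then along with them. Of the 8 libraries, 4 are titled M5_O5 and 4 are titled M5, and no culture without cytokines was analysed here.

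Read plainly, the title M5_O5 stands for cytokines plus OTS514, but the treatment entered for the libraries titled M5_O5 is none, and a TOPK inhibitor is entered for those titled M5. The groups are named by their titles throughout, and every difference is M5_O5 against M5, so which group received OTS514 cannot be told from these labels. PBK itself gave 2.25 to 3.60 CPM (counts scaled to library size, as a rate per 1000000 counts) in the M5_O5 libraries and 0.588 to 2.63 CPM in the M5 libraries. These ranges overlap, and the fitted log2 fold change was 1.325. The labels describe the libraries as separate samples without saying that they came from separate cultures, so p-values measure the spread between these samples only.

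The integrated stress response begins with 4 kinases, each of which senses another stress and phosphorylates the initiation factor eIF2α. Phosphorylated eIF2α slows translation as a whole while favouring translation of the ATF4 mRNA, whose upstream open reading frames otherwise hold ribosomes back. ATF4 is a basic leucine zipper (bZIP) transcription factor that induces genes for amino acid uptake, amino acid synthesis and tRNA charging, together with feedback regulators of the response. Because much of its control is translational, the level of the ATF4 mRNA is not a measure of the ATF4 protein.

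The deposited estimated counts summed to between 16113015 and 16922693 per library in M5_O5 and between 13708055 and 16847599 in M5, and M5 replicate 1 was the smallest. All 7 keratinocyte markers examined were detected, with a summed level of 14340 to 16490 CPM in M5_O5 and 17100 to 21060 CPM in M5. The summed level of 5 fibroblast markers was also lower in M5_O5 (33.0 to 36.6 against 42.9 to 58.0 CPM). The sum of 4 immune markers was 43.7 to 61.5 CPM in M5_O5 and 59.0 to 87.2 CPM in M5, and these ranges overlap. COL1A1 gave 94.2% of the first sum and CD68 gave 99.5% of the second, while the leukocyte and B-cell markers PTPRC and CD79A were at 0 in every library. Melanocyte markers summed to at most 1.09 CPM and endothelial markers to at most 0.849 CPM in any library. The part of these differences in the values below was not tested. The libraries came from 1 keratinocyte line grown without other skin cells, so these sums are read as RNA levels and not as counts of other cell types.

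Across all genes tested, 19.5% passed an adjusted p of 0.05 in edgeR's quasi-likelihood test as higher in M5_O5 and 17.6% as lower. With a change of at least 2-fold asked for as well, 2.87% were called higher and 0.33% lower. Of the 10 stress genes, 4 passed the first threshold as higher (ASNS, CHAC1, DDIT3 and TRIB3), none passed as lower, and 2 (ASNS and CHAC1) were also changed by at least 2-fold. Since these genes were picked on this contrast, nothing is read from that count. Their median log2 fold change was 0.16, with 7 above 0 and 3 below, beside a median of 0.01 over all genes tested. For 8 of the 10 the libraries of the groups overlapped.

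**Figure D1:**
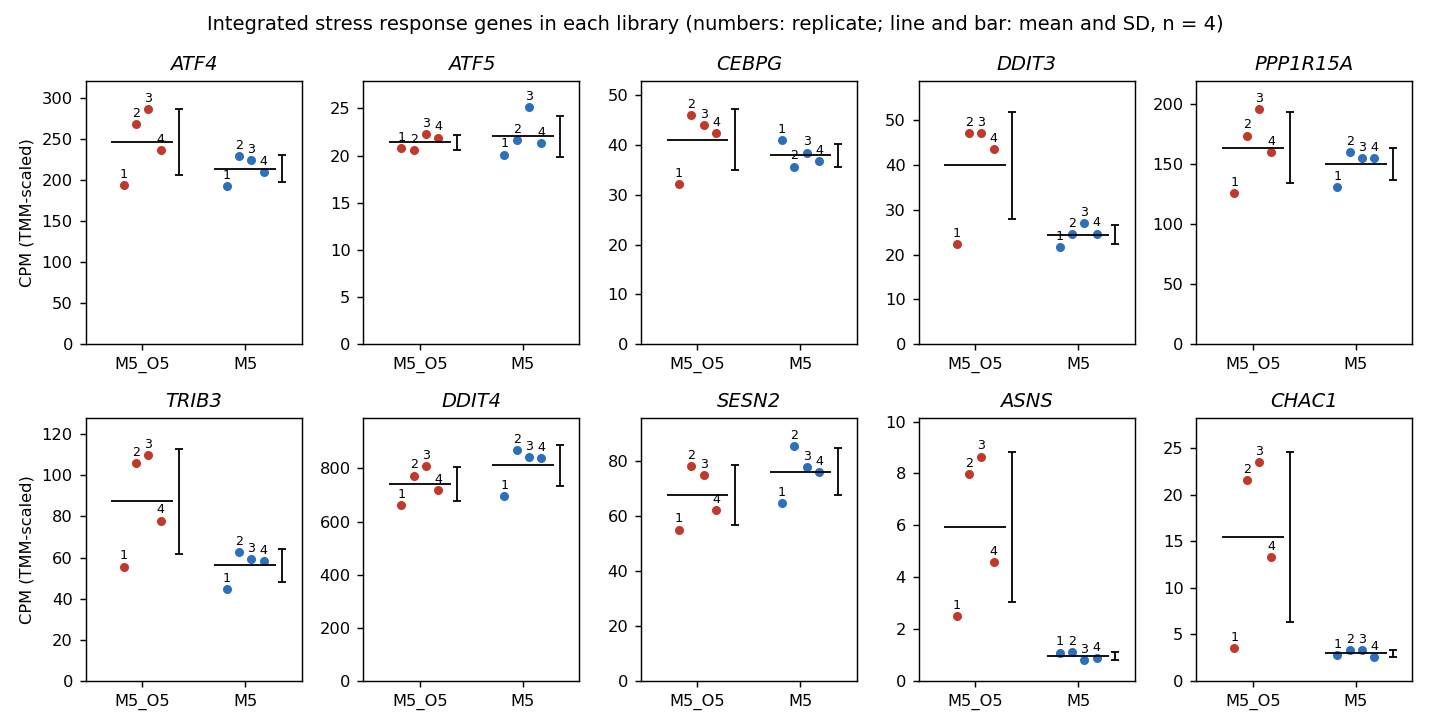
Level of each of the 10 genes in CPM (TMM-scaled, vertical axes starting at 0) in the 4 M5_O5 libraries (red) and the 4 M5 libraries (blue), with the replicate number beside each point, a line at the mean and a bar for the SD. M5_O5 replicate 1 is the lowest red point for every gene but ATF5, and ASNS and CHAC1 are the genes whose 4 red points all lie above the blue ones.

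Near the start sites of 3 of these genes lie the core letters of a C/EBP-ATF response element, the composite site at which ATF4 pairs with C/EBP factors. The letters are shown because ATF4, for which the group is named, binds elements of this kind. Whether it binds these matches was not tested. RefSeq promoter entries (GRCh38.p14, 250 bases before to 50 after each gene start) were found for all 10 genes and searched on both strands for TGATGNAA, the core of that element, and for TGACGTCA, the full cyclic AMP response element that ATF-family dimers bind. The first string was found in ASNS, CHAC1 and CEBPG, and the second in PPP1R15A. In the lines below, written 5′ to 3′ on the strand of the gene, capitals mark the matched bases, and in CHAC1 the match is on the opposite strand.
ASNS, chr7:97872449-97872496, minus strand: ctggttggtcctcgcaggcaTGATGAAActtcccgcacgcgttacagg
CHAC1, chr15:40953242-40953289, plus strand: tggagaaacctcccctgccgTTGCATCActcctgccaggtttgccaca
CEBPG, chr19:33374051-33374098, plus strand: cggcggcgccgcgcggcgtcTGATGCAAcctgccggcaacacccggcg
PPP1R15A, chr19:48872343-48872390, plus strand: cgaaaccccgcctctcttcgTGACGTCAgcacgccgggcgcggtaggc

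The matched bases began at −68 from the start in ASNS, −209 in CHAC1, −42 in CEBPG and −58 in PPP1R15A. For the remaining 6 genes neither string was in this window, which says nothing of sites elsewhere. Of all 27305 genes with a promoter entry, 4.46% had TGATGNAA in at least 1 window and 2.25% had TGACGTCA. Among the 10208 tested genes with an entry, of 12434 tested, the shares were 2.72% and 3.77%. Among tested genes, 278 had TGATGNAA, of which 25.9% passed as higher in M5_O5 and 17.6% as lower, with a median log2 fold change of 0.04. The 385 tested genes with TGACGTCA passed in 18.2% as higher and 18.7% as lower. Both strings are short, and a match is a description of letters and not a bound site.

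The bZIP factors at the centre of the response overlapped between the titles, with DDIT3 the one that passed the threshold. ATF4 measured 194, 268, 286 and 236 CPM in M5_O5 replicates 1 to 4 and 192, 229, 224 and 209 CPM in M5. The means were 246 ± 40.5 and 214 ± 17.0 CPM (SD, n = 4 each), a log2 fold change of 0.20 (SE 0.10). The groups overlapped through M5_O5 replicate 1, which was close to the lowest M5 library, whereas M5_O5 replicates 2, 3 and 4 were above all M5 libraries. With library-size scaling alone or on the TPM scale the log2 fold change was 0.32 or 0.33, and ATF4 passed the threshold. Library-size scaling also moved the median log2 fold change of all genes tested from 0.01 to 0.13, so the pass is not read as particular to ATF4.

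ATF5, a related factor that is also controlled by upstream open reading frames, gave 20.8, 20.6, 22.3 and 21.9 CPM in M5_O5 and 20.1, 21.6, 25.1 and 21.3 CPM in M5. The libraries of the groups were interleaved, and the log2 fold change of -0.04 (SE 0.08) had the other sign without TMM scaling and on the TPM scale. CEBPG, the C/EBP family member that dimerises with ATF4, gave 32.1, 46.0, 44.0 and 42.4 CPM in M5_O5 and 41.0, 35.7, 38.5 and 36.8 CPM in M5. M5_O5 replicate 1 was below every M5 library and the other M5_O5 libraries were above all of them, for a log2 fold change of 0.11 (SE 0.10).

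DDIT3, which encodes CHOP, the pro-apoptotic bZIP factor induced by ATF4, gave 22.3, 47.1, 47.1 and 43.6 CPM in M5_O5. The M5 libraries gave 21.7, 24.6, 27.0 and 24.7 CPM. Replicate 1 of M5_O5 thus stood within the M5 range, and the other 3 M5_O5 libraries lay close together above it. The means of 40 ± 11.9 and 24.5 ± 2.17 CPM (SD, n = 4 each) gave a log2 fold change of 0.71 (SE 0.18). The strand of counting is not stated in the sources used here. If strand was ignored, reads from stretches that DDIT3 or ATF5 shares with a gene on the other strand could be counted for either gene. MARS1, which overlaps DDIT3, had a log2 fold change of 0.33, and NUP62 and IL4I1, which overlap ATF5, had -0.20 and 0.18. The part of overlapping reads in the values of DDIT3 and ATF5 was not tested.

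In both feedback regulators M5_O5 replicate 1 was the lowest library of its group and replicate 3 the highest. TRIB3, a pseudokinase that ATF4 and CHOP induce and that dampens both, gave 55.6, 106, 110 and 78.0 CPM in M5_O5 and 44.6, 62.5, 59.4 and 58.2 CPM in M5. M5_O5 replicate 1 was inside the M5 range and the other 3 M5_O5 libraries above it, and the log2 fold change was 0.63 (SE 0.17). PPP1R15A, or GADD34, the phosphatase subunit that removes the phosphate from eIF2α, gave 126, 174, 196 and 160 CPM in M5_O5 and 131, 160, 155 and 155 CPM in M5. M5_O5 replicate 1 was below every M5 library and the other M5_O5 libraries were above them, and the log2 fold change was 0.13 (SE 0.11).

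The brakes on mTORC1, the kinase complex that drives protein synthesis and growth, had TMM-scaled means that were lower in M5_O5. DDIT4, or REDD1, gave 662, 773, 809 and 720 CPM in M5_O5 and 697, 868, 844 and 839 CPM in M5, for a log2 fold change of -0.13 (SE 0.08). SESN2, a leucine sensor that also acts upstream of mTORC1, gave 55, 78.1, 74.7 and 62.0 CPM in M5_O5 and 64.7, 85.4, 77.8 and 75.8 CPM in M5, for a log2 fold change of -0.17 (SE 0.10). Both genes overlapped between the groups and neither passed the threshold in either direction. With library-size scaling alone the log2 fold changes were closer to 0, at -0.015 for DDIT4 and -0.054 for SESN2. On log2(TPM + 1) they were -0.007 and -0.051. SESN2 was listed at 2 placements with equal values, which were summed.

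The metabolic targets had the largest fitted differences of the set. ASNS, asparagine synthetase, gave 2.50, 7.98, 8.65 and 4.58 CPM in M5_O5 and 1.09, 1.11, 0.79 and 0.872 CPM in M5. All M5_O5 libraries were above all M5 libraries, at 6.11-fold in the fit (log2 fold change 2.61, SE 0.37), on 43 to 146 reads a library in M5_O5 and 12 to 17 in M5. Groups that do not overlap in this direction were found for 17.8% of all genes tested, and in the other direction for 15.8%.

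CHAC1, an enzyme that cleaves glutathione and is induced by ATF4 and CHOP, gave 3.49, 21.6, 23.5 and 13.3 CPM in M5_O5 and 2.77, 3.33, 3.29 and 2.55 CPM in M5. The fitted difference was 5.17-fold (log2 fold change 2.37, SE 0.43). M5_O5 replicate 1 exceeded the highest M5 library only narrowly, while replicates 2 and 3 were the highest, so the mean of 15.5 ± 9.15 CPM (SD, n = 4) describes no single library well. With the threshold for a 2-fold change at a log2 value of 1, the members just inside and just outside were CHAC1 at 2.37 and DDIT3 at 0.71.

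The feature that most of these genes shared was their order across the M5_O5 libraries. Replicate 1 was the lowest of the 4 for 9 of the 10 genes, the exception being ATF5, and the highest for none, beside 30.5% and 31.4% of all genes tested. Replicate 3 was the highest for 7 genes and replicate 2 for the other 3. Replicate 1 lay below replicate 4, and replicate 4 below both replicates 2 and 3, for 9 of the 10 genes, whereas this order held for 14.4% of all genes tested. It held for 9 of the 10 genes without TMM scaling (11.4% of all genes) and for 8 on the TPM scale (5.99%), where CEBPG left it. The scatter between these libraries was itself among the reasons for choosing the genes, so these counts carry no test.

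**Figure D2:**
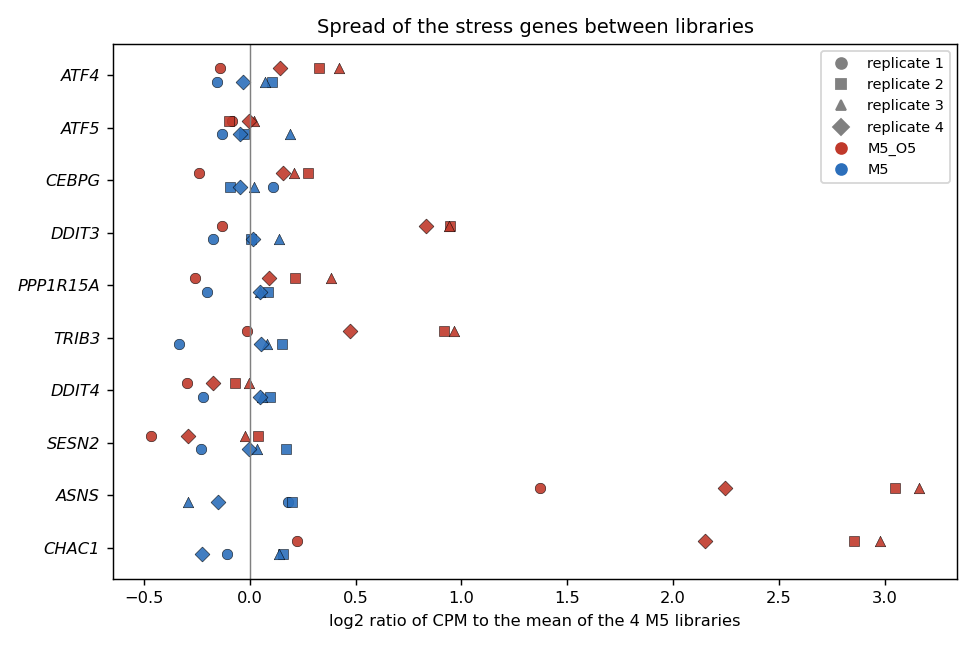
Log2 ratio of each library's CPM to the mean of the 4 M5 libraries (horizontal axis) for the 10 genes, in M5_O5 (red) and M5 (blue), with the shape of the point giving the replicate number. The red points of CHAC1 run from 3.49 CPM, just above the M5 mean, to 23.5 CPM, while the red points of ATF5 and DDIT4 span less than their blue points.

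The spread was uneven between genes. The highest M5_O5 library exceeded the lowest 6.75-fold for CHAC1, 3.46-fold for ASNS, 2.11-fold for DDIT3 and 1.97-fold for TRIB3. In M5 the same 4 genes spanned 1.30-fold, 1.41-fold, 1.24-fold and 1.40-fold. PPP1R15A, ATF4, CEBPG and SESN2 spanned 1.42-fold to 1.56-fold in M5_O5, and DDIT4 and ATF5 were the members with a narrower range there than in M5 (1.22-fold and 1.08-fold against 1.24-fold and 1.25-fold). The median over the 10 genes was 1.52-fold in M5_O5 beside 1.19-fold over all genes tested, and in M5 it was 1.25-fold beside 1.21-fold.

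Measured as an SD on the same libraries, the genes with the widest range ranked high among all genes tested in M5_O5. The SD of log2 CPM there was 1.26 for CHAC1 and 0.82 for ASNS, at percentiles 99.9 and 99.8 of all genes tested. DDIT3 (SD 0.52) and TRIB3 (SD 0.46) were at percentiles 98.7 and 97.9. These 4 were within the top 5% of genes in M5_O5, and none of the 10 was in M5. The scatter between the M5_O5 libraries was known when the genes were chosen, so these ranges and ranks carry no test.

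The values of M5_O5 replicate 1 were within the M5 range for ATF4, ATF5, DDIT3 and TRIB3, above it for ASNS and CHAC1, and below it for CEBPG, PPP1R15A, DDIT4 and SESN2. In replicates 2, 3 and 4, 7 of the 10 genes were above every M5 library, all but ATF5, DDIT4 and SESN2, and so were 20.6% of all genes tested. Over those 3 libraries the mean was 7.31 times the M5 mean for ASNS, 6.51 times for CHAC1, 1.88 times for DDIT3, 1.74 times for TRIB3 and 1.23 times for ATF4. With M5_O5 replicate 1 left out of the fit, ATF4 (log2 fold change 0.30), PPP1R15A (0.23) and CEBPG (0.22) also passed the adjusted p threshold, which made 7 members of 10 in place of 4. The scatter between the M5_O5 libraries was known when the genes were chosen, so these counts carry no test. The share of all genes that passed in that fit is not given here, and nothing is read from the added passes.

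In M5, replicate 1 was the lowest library for 7 of the 10 genes, as it was for 33.6% of all genes tested. It was well below its group for DDIT4 and PPP1R15A. Without it, DDIT4 passed the threshold as lower in M5_O5. With all libraries and library-size scaling alone, the log2 fold change of DDIT4 was -0.015. The share of all genes that passed without M5 replicate 1 is not given here, and nothing is read from that pass.

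Per transcript length, the 10 genes covered a wide range of abundance. In TPM, transcripts per 1000000 after scaling by transcript length, DDIT4 was highest in M5 at 851 ± 31.4, followed by ATF4 at 278 ± 7.24, PPP1R15A at 111 ± 3.38 and DDIT3 at 56.6 ± 3.18 (SD, n = 4). The lower part of the order ran from TRIB3 (42.0 ± 3.51 TPM) through SESN2, ATF5 and CEBPG to CHAC1 (3.26 ± 0.418 TPM) and ASNS (0.808 ± 0.324 TPM). Neighbours whose libraries overlapped in this order were TRIB3 with SESN2 and ATF5 with CEBPG, so those pairs had no clear order.

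In M5_O5 the TPM values of DDIT4 (848 ± 48.7) and SESN2 (34.9 ± 4.24) were close to those in M5. ATF4 stood at 352 ± 51.6 TPM, PPP1R15A at 131 ± 20, DDIT3 at 102 ± 29.9 and TRIB3 at 71.5 ± 18.9. CHAC1 rose in rank to the level of CEBPG (19.5 ± 2.28 TPM) and ATF5 (20.4 ± 1.0 TPM), with an SD of 11.6 TPM that spanned both, and ASNS stayed last at 4.68 ± 2.17 TPM. The pairs that overlapped were PPP1R15A with DDIT3, DDIT3 with TRIB3, ATF5 with CHAC1 and CHAC1 with CEBPG.

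The use of transcripts within each gene was a measure that the choice of genes had not used. For the 6 members with several transcripts and at least 20 counts in every library, the share of the main transcript was compared by a two-sided exact permutation test, whose smallest possible p with 4 against 4 libraries is 0.0286. After adjustment over the 6 genes, at least 4 of them would have to reach that smallest p for any to pass 0.05, so the test says little here, and the adjusted p ranged from 0.643 to 0.657. The main ATF4 transcript held 90.7% ± 2.59 of the gene's counts in M5_O5 and 88.3% ± 0.436 in M5 (SD, n = 4 each), a difference of 2.40 percentage points with p = 0.143 in the exact test. The main transcript shares were 57.9% and 56.2% for DDIT3, 83.1% and 85.2% for TRIB3, and 88.6% and 83.3% for CHAC1. These differences moved with single libraries: leaving out 1 at a time, they ran from -0.27 to 4.75 percentage points for DDIT3, -5.30 to 0.32 for TRIB3 and 3.45 to 9.91 for CHAC1. From deposited TPM the CHAC1 difference was 1.42 percentage points.

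Around these 10 genes, the steps of the pathway differed in how many of their genes passed. The lists below come from general knowledge of the pathway and were drawn up with earlier results of these data known. Each is described by its counts and its median, beside the 19.5% and 17.6% of all genes given above, and adjusted p-values of single genes are from edgeR's quasi-likelihood test over all genes tested.

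**Figure D3:**
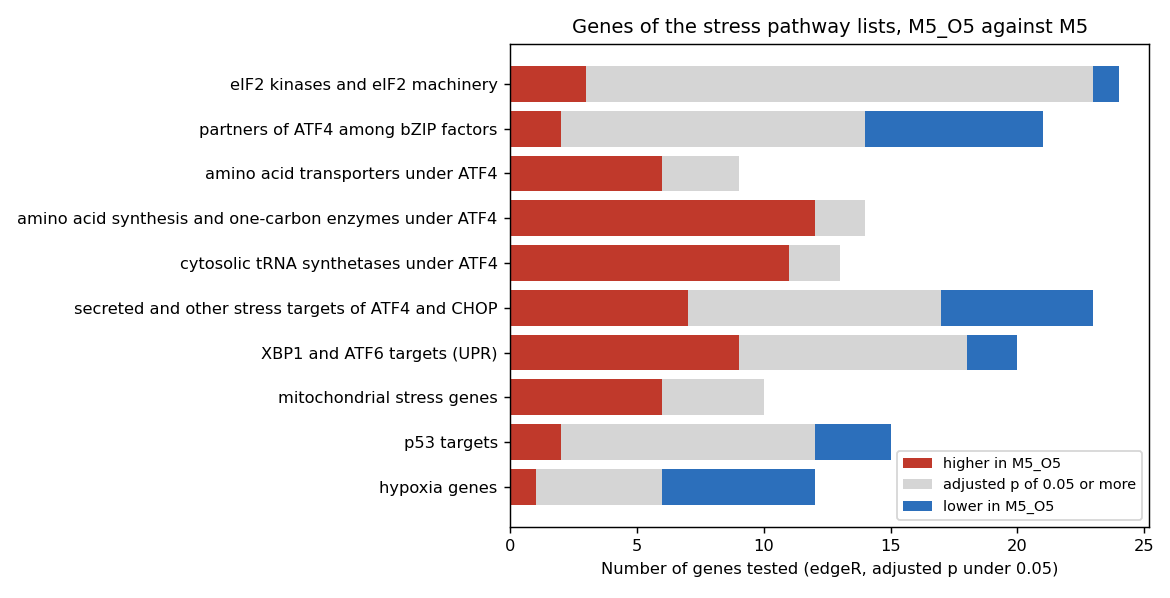
Number of tested genes in each list (horizontal axis, bars from 0) that passed an adjusted p of 0.05 as higher in M5_O5 (red) or lower (blue), or did not pass (grey). Red fills most of the bars of the amino acid enzymes (12 of 14) and the tRNA synthetases (11 of 13), and blue is widest for the bZIP partners (7 of 21), the secreted targets (6 of 23) and the hypoxia genes (6 of 12).

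Of the sensors upstream of ATF4, only the GCN2 transcript passed among the 4 kinases. EIF2AK4, which encodes GCN2, the sensor of uncharged tRNA, gave 81.1 to 83.4 CPM in M5_O5 and 63.0 to 72.3 CPM in M5 (log2 fold change 0.32, adjusted p = 0.000766). EIF2AK1 (HRI, which responds to haem and mitochondrial stress), EIF2AK2 (PKR, which binds double-stranded RNA) and EIF2AK3 (PERK, the sensor in the endoplasmic reticulum) had log2 fold changes of -0.04, -0.08 and -0.05, with adjusted p of 0.602, 0.450 and 0.611. RNA levels do not report kinase activity. In all, 3 of 24 genes for the kinases and the eIF2 machinery were higher, 1 was lower and 20 did not pass, with a median log2 fold change of 0.04, and without M5 replicate 1 or with library-size scaling the count higher was 6 or 8. The largest change was in EIF2B3, a subunit of the exchange factor eIF2B, at 0.80 (adjusted p = 0.000714).

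The bZIP partners of ATF4 had more genes lower than higher, with 2 of 21 higher, 7 lower and 12 not passing (median -0.09), but with library-size scaling alone 5 were higher and 4 lower. ATF3, a stress-induced factor downstream of ATF4, did not pass (log2 fold change 0.07, adjusted p = 0.698). JDP2, a repressor of the AP-1 family, gave 8.20, 15.1, 16.0 and 10.5 CPM in M5_O5 and 6.57, 3.85, 3.42 and 3.43 CPM in M5 (log2 fold change 1.54, adjusted p = 0.000184). Replicates 2 and 3 were again the highest M5_O5 libraries and replicate 1 the lowest. MAF, another member of the wider bZIP family, fell by 0.74 on the log2 scale (adjusted p = 1.02e-06).

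Most of the amino acid enzymes and transporters under ATF4 were higher in M5_O5. For the synthesis and one-carbon enzymes, 12 of 14 were higher, none was lower and 6 changed by at least 2-fold, with a median log2 fold change of 0.93. PSAT1, an enzyme of serine synthesis, gave 24.5, 40.7, 40.5 and 34.3 CPM in M5_O5 and 10.2, 3.72, 4.67 and 6.04 CPM in M5 (log2 fold change 2.52, adjusted p = 3.12e-06). BCAT1, which transaminates branched-chain amino acids, had a log2 fold change of 2.15 (adjusted p = 9.57e-07). Of the transporters, 6 of 9 were higher and none lower (median 0.31), including SLC7A11, the cystine importer (0.97, adjusted p = 5.08e-05), and its heavy chain partner SLC3A2 (0.40, adjusted p = 0.000261).

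The cytosolic tRNA synthetases, which charge tRNAs with their amino acids, were higher for 11 of 13 genes and lower for none (median 0.38). IARS1, for isoleucine, gave 116, 153, 157 and 144 CPM in M5_O5 and 72.8, 63.3, 63.6 and 62.2 CPM in M5 (log2 fold change 1.12, adjusted p = 9.69e-07). AARS1, for alanine, gave 104, 157, 153 and 125 CPM in M5_O5 and 72.0, 67.2, 70.1 and 69.1 CPM in M5 (0.96, adjusted p = 1.44e-05). Both were above M5 in every M5_O5 library, replicate 1 included, which was the lowest of its group.

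The secreted and other targets of ATF4 and CHOP were divided, with 7 of 23 higher, 6 lower and 10 not passing (median 0.01). The count of 7 fell to 3 without M5_O5 replicate 3 and to 4 without M5_O5 replicate 4 or without M5 replicate 4. STC2, a secreted glycoprotein, gave 29.6, 48.2, 50.6 and 38.0 CPM in M5_O5 and 13, 9.47, 10.4 and 10.4 CPM in M5 (log2 fold change 1.95, adjusted p = 1.02e-06). ADM2, a peptide hormone gene, gave 1.28, 4.88, 6.16 and 3.57 CPM in M5_O5 and 1.31, 2.22, 1.84 and 1.43 CPM in M5 (1.21, adjusted p = 0.0166). For ADM2, as for CHAC1 and DDIT3, M5_O5 replicate 1 was near the M5 level and the other 3 libraries were above it.

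Neighbouring stress programmes were examined for comparison. Of the XBP1 and ATF6 targets of the unfolded protein response in the endoplasmic reticulum, 9 of 20 were higher and 2 lower (median 0.13), led by SDF2L1 (0.45, adjusted p = 0.00781) and CRELD2 (0.41, adjusted p = 0.00115). Of the mitochondrial stress genes, 6 of 10 were higher and none lower (median 0.24). Among them HSPE1, the mitochondrial co-chaperonin, gave 36, 20.9, 22.0 and 24.3 CPM in M5_O5 and 18.2, 17.0, 16.2 and 15.1 CPM in M5 (0.64, adjusted p = 0.00371), with replicate 1 the highest library. Its partner HSPD1 had a log2 fold change of 0.59.

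Of the p53 targets, 2 of 15 were higher and 3 lower (median -0.01), with RRM2B (0.52, adjusted p = 0.00268) and AEN (0.44, adjusted p = 0.002) the largest changes. Of the hypoxia genes, a programme that also induces DDIT4, 1 of 12 was higher and 6 were lower (median -0.20). EGLN3, a prolyl hydroxylase, fell by 0.61 and NDRG1 fell by 0.60 on the log2 scale (adjusted p = 7.35e-06 and 9.43e-05).

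**Figure D4:**
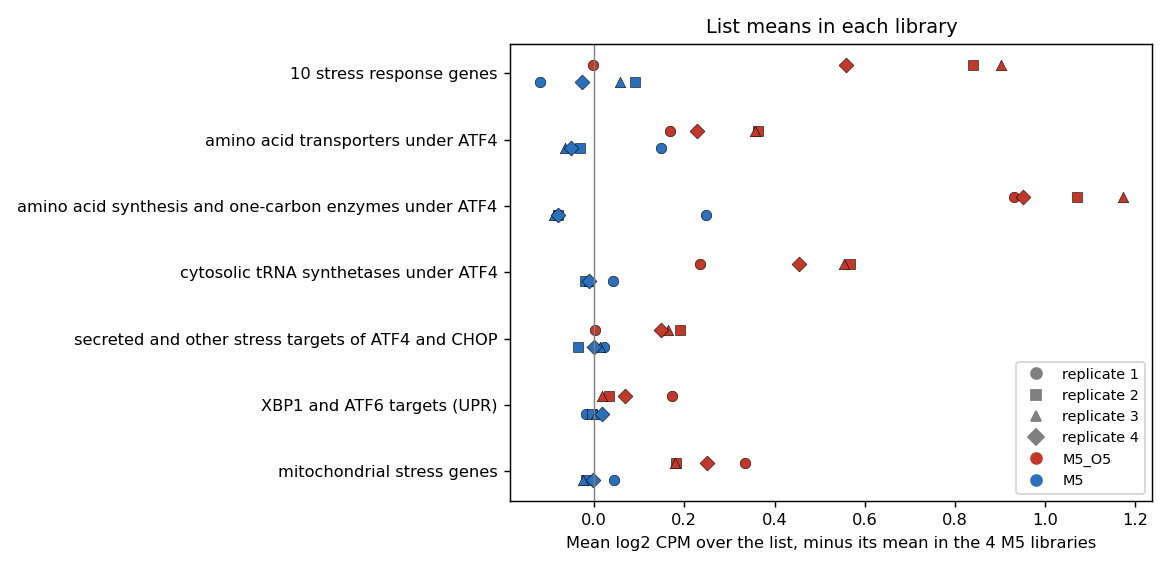
Mean log2 CPM over the genes of each list in each library, minus its mean over the 4 M5 libraries (horizontal axis), in M5_O5 (red) and M5 (blue), with the shape of the point giving the replicate number. For the 10 stress genes M5_O5 replicate 1 lies at the M5 mean while the others lie between 0.56 and 0.90, and for the amino acid enzymes all 4 red points lie between 0.93 and 1.17.

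The order of the M5_O5 libraries was not the same in every list. For the 10 stress genes, the mean log2 CPM exceeded that of M5 by 0.84, 0.90 and 0.56 in M5_O5 replicates 2, 3 and 4, while replicate 1 differed from it by -0.003. This mean joins unlike genes. In M5_O5 replicate 3 the log2 ratio to the M5 mean was 3.16 for ASNS and 2.98 for CHAC1, but 0.42 for ATF4 and 0.02 for ATF5. In M5_O5 replicate 1 it was 1.37 for ASNS and -0.47 for SESN2. For the tRNA synthetases, replicate 1 was lowest in 11 of 13 genes, but its mean was still 0.23 above M5, with the others 0.45 to 0.57 above. For the synthesis and one-carbon enzymes, replicate 1 was lowest in 5 of 14 genes and its mean was 0.93 above M5, close to the 0.95 to 1.17 of the others. For the XBP1 and ATF6 targets and the mitochondrial stress genes, replicate 1 had the highest mean, 0.17 and 0.33 above M5, and the others were 0.02 to 0.07 and 0.18 to 0.25 above. M5 replicate 1 had means 0.15 above the M5 average for the transporters and 0.25 above it for the synthesis and one-carbon enzymes.

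The genes whose pattern across the 8 libraries was most like that of a member were found by the mean absolute difference of centred log2 CPM, over the 11958 genes tested that averaged at least 1 CPM. The nearest to ASNS were STC2 (0.369), TNFSF14 (0.376) and CFAP263 (0.392), where the median gene lay at 1.20. TNFSF14, a TNF-family cytokine also known as LIGHT, gave 19.4, 23.0, 21.7 and 19.4 CPM in M5_O5 and 3.98 to 4.21 CPM in M5, so its likeness lay in the step between the groups and not in the spread within M5_O5. The nearest to ATF4 were ACTMAP (0.0169), ICAM1 (0.0370) and PAQR6 (0.0527), where the median gene lay at 0.215. ICAM1, the adhesion molecule induced by inflammatory cytokines, gave 130, 185, 188 and 172 CPM in M5_O5 and 131, 150, 148 and 143 CPM in M5, with replicate 1 the lowest in both groups, as for ATF4.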

How the data were processed

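The authors aligned reads with HISAT2 and quantified transcripts with StringTie, per the methods, and tested genes with DESeq2 at a fold change of at least 2. The submitters' processing notes list HISAT2 2.1.0, Bowtie2 2.2.5, RSEM 1.2.8 and the mouse build mm10, although the identifiers are human RefSeq transcripts, so the build behind the values is not given in the sources used here. The deposited tables hold, for each of 86639 transcripts, an estimated count (53.8% of values fractional), FPKM and TPM per library. The deposited FPKM values and the group means that the authors averaged over libraries were not used.

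Estimated counts were summed per Entrez gene and rounded. Symbols came from the RefSeq gene table for 17072 of 17131 genes; the other 59 took up to 0.0201% of counts in any library. Genes were filtered with filterByExpr, scaled by TMM and tested with edgeR 4.0.16 in R 4.3.3 (glmQLFit and glmQLFTest, groups by title, 4 against 4 libraries, Benjamini-Hochberg adjustment over 12434 genes, biological coefficient of variation 7.42%). CPM values use TMM-scaled library sizes, and log2 CPM a prior count of 1. Deposited TPM values were summed per gene for levels per length. The procedure was tested on simulated data.

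The 10 genes and the gene lists were chosen with earlier results of these data known. Named beside the 10 were the 4 eIF2 kinases, ATF3, the 2 genes of each list with the largest absolute log2 fold change past an adjusted p of 0.05 at a mean of at least 1 CPM, and the 3 genes nearest in profile to ASNS and to ATF4. Alternatives included DESeq2 1.42.0, different scalings, different filters on low counts, limma 3.58.1 on log2(TPM + 1) and log2(TPM + 0.1), a replicate block, and leaving out each library. Counts limit precision for ASNS above all, at 12 to 17 reads per M5 library.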

Additional observations from a re-analysis of the deposited data

Results flagged for a closer look

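In each group of 4, a value was marked where its gap to the nearest other library was larger than Dixon's 95% critical value for the group's range. Of 100 groups examined, 9 were marked, and chance alone marks about 1 in 20. Of the 10 stress genes, DDIT3 in M5_O5 replicate 1 stood apart at 22.32 CPM (the others 43.62 to 47.1). In M5 replicate 1, DDIT4 at 697 CPM (others 838.8 to 867.7) and PPP1R15A at 130.6 CPM (others 155.4 to 159.7) were low.

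The remaining marks were all in M5 replicate 1. JDP2 at 6.57 CPM (others 3.422 to 3.853) and IARS1 at 72.78 CPM (others 62.23 to 63.57) were high, and NDRG1 at 2545 CPM (others 3258 to 3327) was low. The mean log2 CPM there was 7.71 for the amino acid transporters (others 7.497 to 7.531), 3.723 for the synthesis and one-carbon enzymes (others 3.385 to 3.395) and 6.505 for the tRNA synthetases (others 6.445 to 6.453). What set these libraries apart was not tested.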

How the results depend on the processing

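ASNS, CHAC1, DDIT3 and TRIB3 passed an adjusted p of 0.05 as higher in M5_O5 under all 16 alternatives. ATF4 also passed with library-size scaling (log2 fold change 0.32), with log2(TPM + 1) and log2(TPM + 0.1) (0.33 each), with the replicate block and without M5_O5 replicate 1. Library-size scaling moved the median log2 fold change of all genes from 0.01 to 0.13 and called 25 genes lower at 2-fold. No filter on low counts gave 71 lower, log2(TPM + 1) gave 144 higher and 8 lower, and log2(TPM + 0.1) gave 18 lower. ATF5, at -0.04 in the report and not past the threshold, had the other sign at 0.075 (library size), 0.081 (TPM + 1), 0.085 (TPM + 0.1) and 0.03 (without M5 replicate 3). ASNS had 1.57 with TPM + 1, where the pseudocount is near its level.

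At an adjusted p of 0.05 alone, leaving out 1 library at a time gave 4 to 7 members higher (7 without M5_O5 replicate 1) and 0 to 1 lower (DDIT4 without M5 replicate 1). With a 2-fold change asked for as well, 334 to 465 of all genes were called higher and 41 to 52 lower. The members were chosen on this contrast and its scatter. The share of all genes past the first threshold in these fits is not given here, so nothing is read from the member counts. Log2 fold changes ran from 0.12 to 0.30 for ATF4, -0.08 to 0.03 for ATF5, 0.06 to 0.22 for CEBPG, 0.62 to 0.91 for DDIT3, 0.03 to 0.23 for PPP1R15A, 0.51 to 0.80 for TRIB3, -0.20 to -0.08 for DDIT4, -0.25 to -0.09 for SESN2, 2.37 to 2.87 for ASNS and 2.1 to 2.70 for CHAC1. Same-numbered libraries deviated together little (correlations -0.00919 to 0.19), so the numbers were not taken as pairs. With the replicate block, 359 genes were called higher and 41 lower at 2-fold. At an adjusted p of 0.05 alone, 5 members passed as higher (ATF4 added) and 2 as lower (DDIT4 and SESN2). The share of all genes past that threshold in this fit is not given here either, and nothing is read from these passes. Of 320 list counts, 287 stayed within 1.5 times. Of the p53 targets, 5 were higher with library-size scaling. Without 1 library, the XBP1 and ATF6 targets lower numbered 1 (without M5_O5 replicate 2, 3 or 4, or M5 replicate 3 or 4) to 4 (without M5 replicate 1). Low counts limit ASNS. The cause of these shifts was not tested.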
